A study of Mus musculus with 6 samples.

Results

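The Hippo pathway kinases and effectors are 10 genes (Lats1, Lats2, Stk3, Stk4, Sav1, Mob1a, Nf2, Yap1, Wwtr1 and Tead1) of the 31053 gene identifiers counted in bulk RNA sequencing of mouse cerebellum. They were chosen by name because Lats2 was lower in KIKO than in WT mice, so the difference of Lats2 between the genotypes is given as a description, without a test. Libraries of 2 WT and 3 KIKO mice were compared. KIKO (knock-in knock-out) mice model Friedreich's ataxia, and the WT mice are their C57BL/6 littermates. The labels name the cerebellum and the genotype and give neither age nor sex. For a comparison of KIKO with WT mice aged 6 mo, the study describes bulk libraries of CD45+/CD11b+ cells, that is macrophages and microglia, isolated with magnetic beads. It also describes transcriptomes of cultured cerebellar microglia and of CD11b+ cells from mice after a dietary treatment. Which of these experiments the libraries belong to is not given in the labels. A WT sample with the number 3 was not analysed here. Nothing in the labels says how the animals of a genotype relate to each other, so p-values measure the spread between these libraries.

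The Hippo pathway is a kinase cascade that restrains growth-promoting transcription. NF2 (merlin) at the cell membrane acts upstream of the LATS kinases. The MST kinases with the scaffold SAV1 phosphorylate the LATS kinases and their activator MOB1. LATS in turn phosphorylates YAP and its relative TAZ (Wwtr1) so that they stay out of the nucleus. When YAP and TAZ are not phosphorylated, they bind TEAD factors at the DNA and switch on their targets, with Lats2 itself a known target. In the brain, YAP and TAZ are best known from astroglia and vascular cells.

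The libraries held between 1013107 and 1351339 counts. Levels are normalized CPM, that is counts scaled to a common library size with TMM factors, and 3 counts corresponded to between 2.28 and 3.04 normalized CPM. Intervals given for a library are exact 95% Poisson intervals and cover counting error only. KIKO replicate 2 stood apart: its correlation with any other library over the log2 CPM of the 10889 tested genes (genes are no replicates) was between 0.672 and 0.747, whereas the other libraries correlated with each other at 0.884 to 0.931. Microglial markers (6 genes, all detected) summed to between 3165 and 4770 normalized CPM in these 4 libraries and to 9319 in KIKO replicate 2, and oligodendrocyte markers (4 genes) to between 4054 and 10530 and to 16932. Choroid plexus markers (5 genes) summed to between 6660 and 14150, of which Ttr alone made up between 6550 and 13953. Transcripts of other cells of the cerebellum were thus abundant beside those of microglia. In such bulk libraries, fewer cells of a type and less RNA per cell cannot be told apart.

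All 10 genes had enough counts to be tested. Lats2 and Mob1a, which encodes the activator of the LATS kinases, were lower in every KIKO library than in either WT library, and Nf2 and Stk3 were higher in every KIKO library. The values of the other 6 genes overlapped between the genotypes. Such a separation was found in 8.51% of all tested genes for lower and in 8.2% for higher KIKO values. Without KIKO replicate 2, Wwtr1 also lay below both WT libraries, as did 19% of all tested genes. Nothing is read from these counts, which include Lats2. The thresholds of the study, an absolute log2 fold change over 0.75 with an unadjusted p below 0.05, were applied to edgeR's quasi-likelihood test. Of the 9 members other than Lats2, Mob1a (lower) and Nf2 (higher) passed them. The background was 0.487% of all tested genes for the lower and 0.716% for the higher direction, and nothing is read from this count because the genes were chosen through the same comparison. None of the 9 genes other than Lats2 had an adjusted p under 0.05 (edgeR, Benjamini-Hochberg over all genes), and 2 of them had an unadjusted p under 0.05. With DESeq2's Wald test, Mob1a alone of the 9 passed the thresholds and none had an adjusted p under 0.05. The median log2 fold change was −0.063 over the 9 genes and −0.20 with Lats2 included, against 0.022 over all tested genes.

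**Figure D1:**
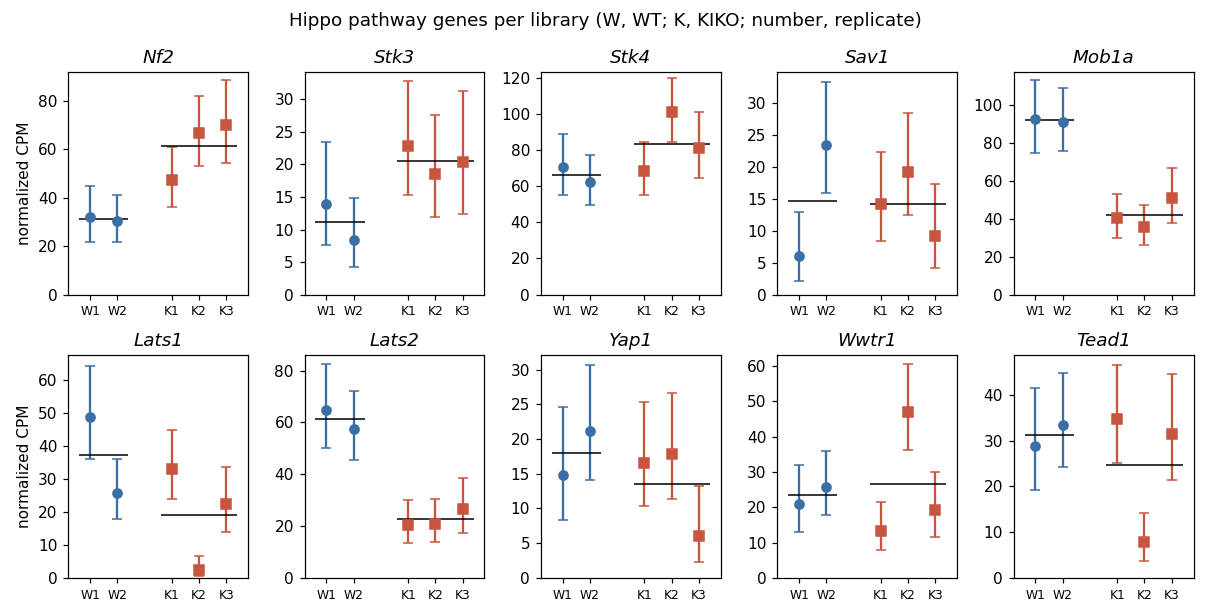
Normalized CPM of the 10 Hippo pathway genes in each library (W1 and W2, WT replicates 1 and 2; K1 to K3, KIKO replicates 1 to 3), with exact 95% Poisson intervals as bars and the mean of each genotype as a line; each vertical axis starts at 0 and has its own scale. Lats2 lies between 57.6 and 64.7 in WT and between 20.5 and 26.4 in KIKO mice, and Lats1 and Tead1 are lowest in KIKO replicate 2.

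The cascade starts with Nf2 (ENSMUSG00000009073, chromosome 11, 4765845 to 4849536, GRCm38), which encodes merlin, a membrane-linked scaffold and tumour suppressor. Nf2 had 31.9 and 30.3 normalized CPM in WT replicates 1 and 2 and 47.3, 66.5 and 70.0 in KIKO replicates 1, 2 and 3. The WT libraries were nearly equal, and each KIKO library lay above both. The means were 31.1 ± 1.09 (SD, n = 2) and 61.3 ± 12.2 (SD, n = 3), and the log2 fold change was 0.97 (standard error 0.42, unadjusted p = 0.0473, adjusted p = 1 in edgeR's quasi-likelihood test). By counting error, KIKO replicate 1 (36.1 to 60.9) reached into the interval of WT replicate 1 (21.8 to 45.0). The thresholds were passed without KIKO replicate 2 (0.91, unadjusted p = 0.0208 in edgeR's test), but without WT replicate 1, WT replicate 2, KIKO replicate 1 or KIKO replicate 3 the unadjusted p in edgeR's test was 0.141, 0.169, 0.0582 and 0.139.

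The MST kinases, which stand at the head of the kinase cascade, are encoded by Stk4 (MST1, chromosome 2, 164070322 to 164155524) and Stk3 (MST2, chromosome 15, 34875496 to 35178921). Stk3 had 13.9 and 8.34 normalized CPM in WT replicates 1 and 2 and 22.9, 18.5 and 20.3 in KIKO replicates 1 to 3. The KIKO libraries were alike and above both WT libraries, yet with 11 and 14 counts in the WT libraries the log2 fold change of 0.89 had a standard error of 0.60 (unadjusted p = 0.178, adjusted p = 1 in edgeR's test). Per kilobase of exon, Stk4 was higher than Stk3 (means of 13.1 and 2.75 normalized CPM). It had 70.7 and 62.2 normalized CPM in the WT libraries and 68.6, 101 and 81.2 in KIKO replicates 1 to 3, with KIKO replicate 2 the highest and the genotypes overlapping. Its log2 fold change was 0.33 (standard error 0.38, unadjusted p = 0.4, adjusted p = 1 in edgeR's test). Stk4 made up 83.5% and 88.2% of the MST counts in WT and 75%, 84.5% and 80.0% in KIKO mice, and the exact 95% binomial intervals of the lowest (66.1% to 82.6%) and highest (79.8% to 93.9%) libraries overlapped. Sav1 (chromosome 12, 69965012 to 69987002), the scaffold that holds MST and LATS together, differed more between the WT libraries than between the KIKO libraries. It had 6 counts in WT replicate 1 and 31 in WT replicate 2, or 5.98 and 23.5 normalized CPM, and the KIKO libraries (14.2, 19.3 and 9.13) lay between them. Its log2 fold change was −0.063 (standard error 0.76, unadjusted p = 0.936, adjusted p = 1 in edgeR's test). The exons of Sav1 share 1336 bases with those of Atl1 on the opposite strand, and the strand setting of the counting is not given in the sources used here.

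At the next step, the LATS kinases and their activator MOB1 act together. Lats2 (ENSMUSG00000021959, chromosome 14, 57689662 to 57758388, minus strand) had 65 and 76 counts in WT replicates 1 and 2 and 26, 27 and 26 in KIKO replicates 1 to 3. These correspond to 64.7 and 57.6 and to 20.5, 20.9 and 26.4 normalized CPM. Their Poisson intervals ran from 45.4 to 82.5 in WT and from 13.4 to 38.7 in KIKO libraries. The mean level in WT mice was 2.71-fold that of KIKO mice (log2 fold change −1.44, standard error 0.42), and with any library left out the log2 fold change was between −1.56 and −1.35. The exons of Lats2 share 2955 bases with those of Gm49361 on the same strand, a gene with 0 counts in every library, and reads from this stretch may have been left unassigned by the counting.

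Mob1a (ENSMUSG00000043131, chromosome 6, 83326016 to 83343776, plus strand) encodes the adaptor that binds LATS and brings it to full activity. It had 92.6 and 91.0 normalized CPM in WT replicates 1 and 2 and 40.2, 35.5 and 50.7 in KIKO replicates 1 to 3. The WT libraries were nearly equal and all KIKO libraries lay below them, with Poisson intervals that did not overlap (74.8 as the lowest WT bound, 66.9 as the highest KIKO bound). The means were 91.8 ± 1.15 (SD, n = 2) and 42.2 ± 7.78 (SD, n = 3), and the log2 fold change was −1.12 (standard error 0.38, unadjusted p = 0.0163, adjusted p = 1 in edgeR's quasi-likelihood test). No exon of Mob1a overlaps another gene. Without WT replicate 1, WT replicate 2 or KIKO replicate 1, Mob1a no longer passed the thresholds (unadjusted p = 0.0748, 0.0715 and 0.0617 in edgeR's test), while its log2 fold change stayed between −1.28 and −1.02 with any library left out.

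Lats1 (chromosome 10, 7681214 to 7716460), the paralog of Lats2, did not separate the genotypes. It had 48.8 and 25.8 normalized CPM in WT replicates 1 and 2 and 33.1, 2.32 and 22.3 in KIKO replicates 1 to 3. KIKO replicate 2, with 3 counts, was far below the others, and the genotypes overlapped. The log2 fold change of −0.95 had a standard error of 0.85 (unadjusted p = 0.297, adjusted p = 1 in edgeR's test) and was −0.40 without KIKO replicate 2. Lats2 made up 57.0% and 69.1% of the LATS counts in WT and 38.2%, 90.0% and 54.2% in KIKO mice, so its share did not separate the genotypes. Without KIKO replicate 2, the KIKO shares lay below both WT shares. The exact 95% binomial intervals of WT replicate 1 (47.4% to 66.3%) and KIKO replicate 3 (39.2% to 68.6%) overlapped. Nothing is read from this, since Lats2 was chosen for its difference.

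**Figure D2:**
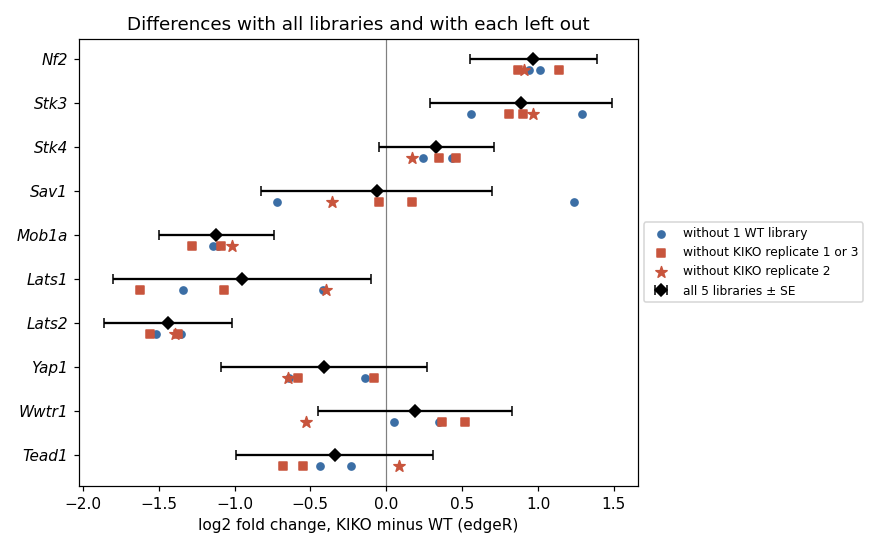
Log2 fold change (KIKO minus WT, edgeR, horizontal axis) of each of the 10 genes with all 5 libraries (black diamonds with the standard error) and with each library left out (coloured points). The points of Lats2 and Mob1a stay to the left of 0 and those of Nf2 and Stk3 to the right, and Lats1, Stk4 and Yap1 keep their sign as well, while Sav1, Wwtr1 and Tead1 change sign.

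YAP (Yap1, chromosome 9, 7931999 to 8004596) and TAZ (Wwtr1, chromosome 3, 57455649 to 57575910) are the transcriptional coactivators that the cascade holds back, and Tead1 (chromosome 7, 112679318 to 112906807) encodes a DNA-binding partner. Yap1 had 14.9 and 21.2 normalized CPM in WT replicates 1 and 2 and 16.6, 17.8 and 6.09 in KIKO replicates 1 to 3, where KIKO replicate 3 held 6 counts. Its log2 fold change was −0.41 (standard error 0.68, unadjusted p = 0.555, adjusted p = 1 in edgeR's test). Wwtr1 had 20.9 and 25.8 in WT and 13.4, 47.1 and 19.3 normalized CPM in KIKO mice. KIKO replicate 2 was the highest library and the remaining KIKO libraries the lowest, so that the log2 fold change of 0.19 (standard error 0.64, unadjusted p = 0.774, adjusted p = 1 in edgeR's test) became −0.53 without KIKO replicate 2. Tead1 had 28.9 and 33.4 in WT and 34.7, 7.73 and 31.5 normalized CPM in KIKO mice. Only KIKO replicate 2, with 10 counts, departed from the others, and the log2 fold change of −0.34 (standard error 0.65, unadjusted p = 0.613, adjusted p = 1 in edgeR's test) was 0.085 without it. The departures of Lats1, Tead1 and Wwtr1 thus lay in the library with the highest microglial and oligodendrocyte and the lowest neuronal marker sums (1279 against 1593 to 2558). Its mural (345), astrocyte (358), choroid plexus (14150) and fibroblast (120) sums were the highest too, and the part of these cells in the departures was not tested.

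For Lats2, Mob1a and Nf2, which separated the genotypes, and for both effectors, the 250 bases before the RefSeq transcription start (GRCm38.p6) are printed from 5′ to 3′ on the strand of the gene. Capitals mark GGAATG or its reverse complement CATTCC, the core of the TEAD motif, through which YAP and TAZ reach the DNA. For Wwtr1, Lats2 and Nf2, which have more than a single start in the table, a single window is shown, and that of Lats2 lies within the span that GENCODE gives the gene.
Lats2, chr14:57746124-57746373, minus strand: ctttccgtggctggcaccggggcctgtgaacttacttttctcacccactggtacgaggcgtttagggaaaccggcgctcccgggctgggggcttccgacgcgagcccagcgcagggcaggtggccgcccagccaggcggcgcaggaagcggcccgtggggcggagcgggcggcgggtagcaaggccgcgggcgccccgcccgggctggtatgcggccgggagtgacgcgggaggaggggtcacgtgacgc
Mob1a, chr6:83325789-83326038, plus strand: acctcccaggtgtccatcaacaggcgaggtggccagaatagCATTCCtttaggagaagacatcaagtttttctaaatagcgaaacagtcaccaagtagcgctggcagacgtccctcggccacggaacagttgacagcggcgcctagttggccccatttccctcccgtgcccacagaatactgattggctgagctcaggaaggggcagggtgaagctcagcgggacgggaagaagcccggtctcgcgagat
Nf2, chr11:4849545-4849794, minus strand: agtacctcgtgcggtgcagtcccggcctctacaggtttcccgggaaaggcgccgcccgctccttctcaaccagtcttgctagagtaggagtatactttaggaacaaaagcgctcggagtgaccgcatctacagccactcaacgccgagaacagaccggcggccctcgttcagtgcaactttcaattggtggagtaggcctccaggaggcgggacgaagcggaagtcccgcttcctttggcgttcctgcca
Yap1, chr9:8004597-8004846, minus strand: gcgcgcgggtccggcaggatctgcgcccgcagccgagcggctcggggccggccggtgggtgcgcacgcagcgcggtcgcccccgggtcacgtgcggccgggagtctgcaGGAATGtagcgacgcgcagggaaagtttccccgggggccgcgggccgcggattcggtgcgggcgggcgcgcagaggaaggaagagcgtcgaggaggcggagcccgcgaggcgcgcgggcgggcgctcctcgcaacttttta
Wwtr1, chr3:57575911-57576160, minus strand: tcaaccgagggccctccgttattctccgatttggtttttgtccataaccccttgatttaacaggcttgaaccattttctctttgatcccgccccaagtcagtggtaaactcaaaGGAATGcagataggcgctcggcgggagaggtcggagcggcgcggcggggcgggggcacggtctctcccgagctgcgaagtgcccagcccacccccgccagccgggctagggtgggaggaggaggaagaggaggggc

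Of the 8 members with a window in the table (all but Stk3 and Tead1), 4 held the TEAD motif on either strand (Mob1a, Sav1, Wwtr1 and Yap1), in 5 of the 11 windows of these 8 members, of which both windows of Wwtr1 overlap. It was found in 12.6% of all 32851 windows of the same length. Neither window of Lats2 held these letters. The AP-1 motif TGANTCA, whose factors often bind beside TEAD, was in none of the member windows and in 6.75% of all windows. The window of Lats2 shown held 74.0% G and C and 31 CpG sites, and that of Mob1a 56.8% and 14, against medians of 52.4% and 6 over all windows. These matches describe the letters of the window and not binding.

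Paralogs can replace each other in the pathway, so their normalized CPM were summed at each step, again as a description. The sum of Lats1 and Lats2 was 114 and 83.4 in WT and 53.6, 23.2 and 48.7 in KIKO libraries, with means of 98.5 ± 21.3 (SD, n = 2) and 41.8 ± 16.3 (SD, n = 3). Mob1a with its paralog Mob1b summed to 136 and 115 in WT and to 75.7, 75 and 73.1 in KIKO libraries. The KIKO libraries lay below both WT libraries in both sums, which for the LATS pair follows from Lats2, since Lats1 alone overlapped. The sum of Stk3 and Stk4 was 84.7 and 70.5 in WT and 91.5, 120 and 101 in KIKO libraries, all above WT. Stk3 alone separated the genotypes in the same direction, and Stk4 alone overlapped. Yap1 with Wwtr1 (35.9 and 47.0 in WT, 30.0, 64.9 and 25.4 in KIKO) overlapped between the genotypes. The sums of the 4 TEAD genes (35.9 and 41.0 in WT, 42.6, 26.3 and 34.5 in KIKO) overlapped too. Mob1b alone overlapped as well, with means of 33.7 ± 14.4 (SD, n = 2) and 32.4 ± 8.95 (SD, n = 3), whereas Mob1a alone separated the genotypes. Among single tested genes, 16.7% separated the genotypes in either direction, and nothing is read from these sums.

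**Figure D3:**
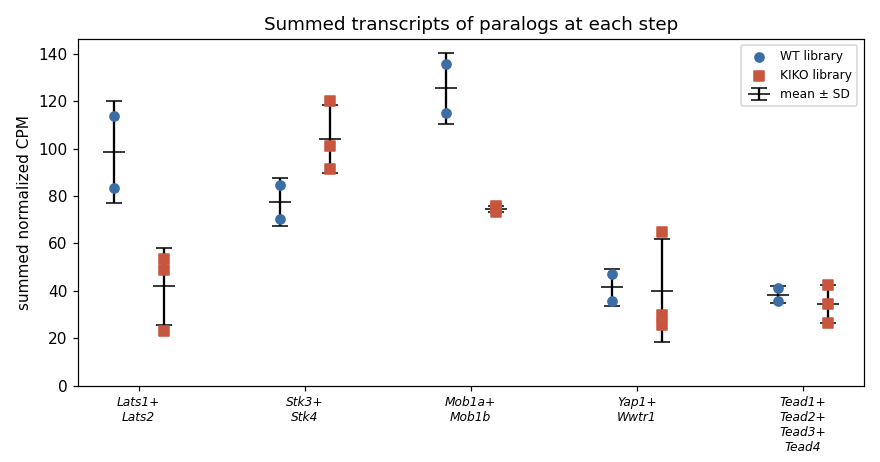
Summed normalized CPM (vertical axis, from 0) of the paralogs at each step of the pathway in WT (circles) and KIKO (squares) libraries, with mean ± SD. The KIKO libraries lie below WT for the LATS and MOB1 pairs, the former through Lats2, for which the genes were chosen. They lie above WT for the MST pair, and the YAP and TAZ and the TEAD sums overlap. Alone, Mob1a and Stk3 separate the genotypes, whereas Mob1b and Stk4 overlap.

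To compare levels between the genes, normalized CPM were divided by the length of the merged exons. Averaged per kilobase over both genotypes, Stk4 (13.1 ± 2.61, SD over 5 libraries) and Mob1a (12.9 ± 5.79) were the highest, followed by Nf2 (7.21 ± 2.73), Lats2 (5.46 ± 3.07), Wwtr1 (5.30 ± 2.72), Lats1 (3.63 ± 2.32), Stk3 (2.75 ± 0.939), Sav1 (2.74 ± 1.36), Tead1 (2.01 ± 0.819) and Yap1 (1.65 ± 0.611). No neighbours in this order were separated in all 5 libraries. Mob1a was above Nf2 and Tead1 above Yap1 in 4 of 5 libraries, and the other neighbours kept their order in 3 of 5. For Stk4 against Mob1a and for Nf2 against Lats2, this split followed the genotype. Nothing is read from this, since Lats2 was chosen for its difference and Mob1a and Nf2 separated the genotypes as single genes. The share of gene pairs that do so was not computed. In both WT libraries Mob1a (19.3 and 19.0) was above Stk4 (12.1 and 10.6) and Lats2 (9.29 and 8.27) above Nf2 (4.67 and 4.45), and in all 3 KIKO libraries both orders were the reverse. The median of all tested genes was 7.37 normalized CPM per kilobase. Thus 70.8% of the tested genes lay below Stk4 and 5.87% below Yap1. If the libraries counted transcript ends rather than whole transcripts, which the sources used here leave unclear, the division by length would understate long transcripts such as Tead1.

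By the root mean square distance between log2 normalized CPM centred over the 5 libraries, Mob1a was also among the 5 genes most like Lats2 out of 10888. The others were Dok1 (an adaptor of tyrosine kinase signalling, distance 0.082), Grk5 (a kinase of G protein-coupled receptors, 0.13), Ankrd45 (0.14) and Arhgap4 (0.14), and Mob1a had 0.16. The median distance of all genes was 0.85, and the remaining members had distances between 0.76 for Yap1 and 1.14 for Nf2. Dok1 had 19.9 and 15.9 normalized CPM in WT and 4.73, 4.64 and 6.09 in KIKO libraries, and Arhgap4 44.8 and 39.4 against 16.6, 13.9 and 15.2. Since Lats2 was chosen for its difference, these genes share that difference by construction.

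The other genes of the pathway were described in 4 lists. Of 73 genes, 55 could be tested, 32 lower (58.2%) and 23 higher in KIKO mice, against 48.1% lower among all tested genes, and 1 passed the thresholds, where the background was 1.2% of all tested genes in either direction. The genes were lower in every KIKO library in 6 cases and higher in 6, against the 8.51% and 8.2% of all tested genes given above. The median log2 fold change over the 55 genes was −0.14, and −0.012 without KIKO replicate 2. Among the upstream inputs and scaffolds (22 of 25 tested, median −0.15, and −0.033 without KIKO replicate 2), such as the TAO and MAP4 kinases that also activate LATS, 0 passed the thresholds in either direction. Taok1, with the most counts of the list, had 510 and 366 normalized CPM in WT and 506, 113 and 528 in KIKO libraries, with KIKO replicate 2 the lowest. Of the paralogs and TEAD cofactors (4 of 10 tested, median −0.24, and −0.053 without KIKO replicate 2), 0 passed as well, and Stk38, a LATS-related kinase, had means of 170 ± 30.8 (SD, n = 2) for WT and 160 ± 98.1 (SD, n = 3) for KIKO. Of the inhibitors of the kinase cascade (15 of 17 tested, median 0.17, and 0.12 without KIKO replicate 2), 0 passed. This list includes genes of the phosphatase complex STRIPAK. Strn3 had means of 286 ± 59.7 (SD, n = 2) for WT and 245 ± 93.5 (SD, n = 3) normalized CPM for KIKO. Over these lists and the targets, no gene had an adjusted p under 0.05 (edgeR), and 1 had an unadjusted p under 0.05.

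That gene was Nuak2, a kinase gene that YAP is known to induce. Among the YAP/TAZ targets, 14 of 21 genes were tested, 8 lower and 6 higher in KIKO mice (median log2 fold change −0.15, and −0.29 without KIKO replicate 2). Nuak2 had 35.9 and 26.5 normalized CPM in WT replicates 1 and 2 and 15.8, 4.64 and 12.2 in KIKO replicates 1 to 3, all below WT. Its log2 fold change was −1.52 (standard error 0.64, unadjusted p = 0.0446, adjusted p = 1 in edgeR's test), and without WT replicate 1, WT replicate 2 or KIKO replicate 3 the unadjusted p in edgeR's test was 0.204, 0.0911 and 0.0791. It was 0.0518 with DESeq2's Wald test. Named after their values were seen, Axl (a receptor tyrosine kinase) and Ccn1 (a matricellular protein) were also lower in each KIKO library. The WT and KIKO means of Axl were 49.1 ± 0.347 (SD, n = 2) and 29.4 ± 10.7 (SD, n = 3) normalized CPM (unadjusted p = 0.162 in edgeR's test), and those of Ccn1 were 27.5 ± 9.34 (SD, n = 2) and 17.6 ± 2.59 (SD, n = 3) (unadjusted p = 0.247 in edgeR's test). Ccdc80, named likewise, and Asap1, the target with the most counts, lay above WT in each KIKO library, with log2 fold changes of 1.13 (standard error 0.93) and 0.19 (standard error 0.34). For Ccdc80 this was narrow, since WT replicate 2 and KIKO replicate 1 each held 7 counts. Ccn2, a widely used reporter of YAP activity and also named afterwards, overlapped, with means of 11.8 ± 6.87 (SD, n = 2) and 8.42 ± 1.5 (SD, n = 3).

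**Figure D4:**
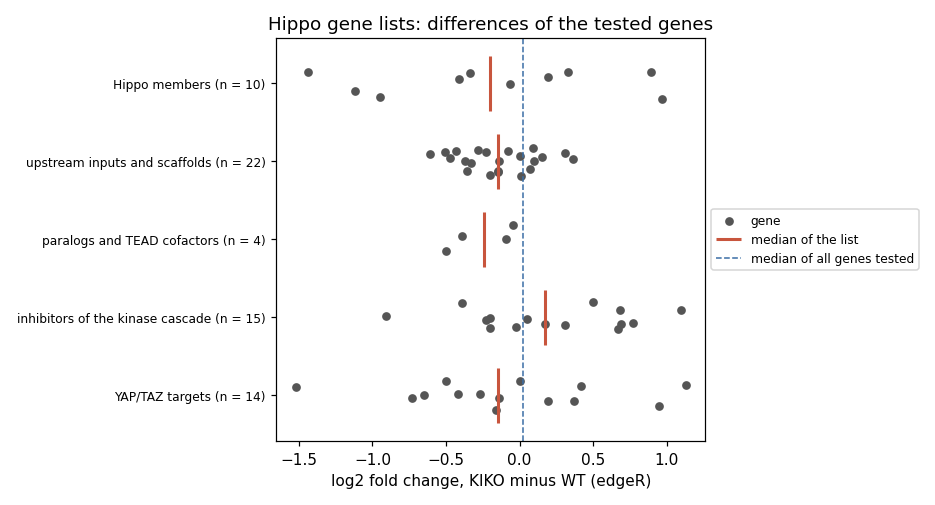
Log2 fold change (KIKO minus WT, edgeR) of each tested gene (points) of the 10 members and of 4 further Hippo lists, with the median of each list (vertical bars) and of all tested genes (dashed line). The medians lie between −0.24 and 0.17, and the leftmost points are Nuak2 at −1.52 and Lats2 at −1.44.

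Of 10 lists of cell type markers, the summed levels of 2 separated the genotypes. Among single tested genes, 16.7% did so in either direction, and nothing is read from this count. Fibroblast markers (5 genes, 3 tested) summed to between 66.7 and 71.7 normalized CPM in WT and between 74.9 and 120 in KIKO libraries, and those of monocytes and neutrophils (4 genes, 2 tested, Ly6c2 at 0) to between 16.9 and 27.3 and between 32.5 and 92.3. Within these lists, Col1a1 and Col1a2 were higher in every KIKO library, though WT replicate 2 and KIKO replicate 1 each held 7 counts of Col1a1. Dcn overlapped, Lum had 7 and 6 counts in WT and 2, 0 and 1 in KIKO libraries, and S100a8 and S100a9 each overlapped. The choroid plexus sums, which were nearly all Ttr, overlapped (10683 and 11720 in WT, 7947, 14150 and 6660 in KIKO), but not without KIKO replicate 2. All 5 choroid plexus markers had a negative log2 fold change. Otx2 (−0.97, unadjusted p = 0.0709 in edgeR's test) and Folr1 (−0.93, unadjusted p = 0.192 in edgeR's test) were lower in every KIKO library, as were Lats2 and Mob1a. The same held for the oligodendrocyte marker Mog (−0.73, unadjusted p = 0.145 in edgeR's test) and the mural marker Rgs5 (−0.54, unadjusted p = 0.18 in edgeR's test). Among all tested genes, 8.51% were lower in every KIKO library. The part of these cells in the differences of the members was not tested. The endothelial (363 to 732 in WT, 399 to 602 in KIKO), mural (185 to 276, 199 to 345) and astrocyte (166 to 341, 271 to 358) sums, of cells known to express YAP and TAZ, overlapped. The astrocyte marker Gfap alone of that list passed the thresholds, with 19.9 and 9.86 normalized CPM in WT and 30.0, 44.8 and 36.5 in KIKO libraries (log2 fold change 1.33, unadjusted p = 0.04, adjusted p = 1 in edgeR's test). T cell markers (3 genes, Cd3e and Cd3d at 0) summed to at most 2.37. Without KIKO replicate 2, the median log2 fold change was −0.36 over the 9 members other than Lats2, −0.38 with Lats2, and −0.011 over all tested genes.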

How the data were processed

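Reads were trimmed with Trimmomatic, aligned to mm10 with HISAT2 and counted per gene with featureCounts by the authors. Annotation, strand setting and handling of multi-mapping reads are not given in the sources used here. What the authors deposited were raw whole-number counts of reads per gene, and log2 values of counts normalized with DESeq2. Columns were matched to samples by name. Another 2 columns of per-sample values match no sample label and were left unused, and 1 WT sample was not analysed here, so 2 WT were compared with 3 KIKO libraries. Names, exons and overlaps came from GENCODE M21 (GRCm38, which is mm10), which named 31011 of 31053 identifiers (99.9%), and promoter windows from RefSeq (GRCm38.p6).

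The analysis of counts used edgeR 4.0.16 (R 4.3.3): filterByExpr (minimum count 10, minimum total 15, 10889 genes, between 98.6% and 98.94% of the counts), TMM, and the two-sided quasi-likelihood test with Benjamini-Hochberg adjustment over all tested genes. The common biological coefficient of variation was 0.468, and 0.243 without KIKO replicate 2. Likeness used log2 CPM with a prior count of 2. Alternatives were DESeq2 1.42.0, limma 3.58.1 with trend on the deposited log2 values, other scalings and filters, a replicate block, and leaving out each library. The procedure was also run on simulated counts. These had the same variation for all genes and no library that stood apart as KIKO replicate 2 did, so that the run cannot show how the test behaves with such a library. The targeted gene is not reported here. The members and lists were chosen with earlier results of these data known. Named were the members, list genes past the thresholds or most abundant, the 5 genes most like Lats2, and genes with exons overlapping a member. Depth limits precision: with few counts per library, intervals are wide, and they cover counting error only.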

Additional observations from a re-analysis of the deposited data

How the results depend on the processing

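The log2 fold change of Lats2 lay between −1.56 and −1.35 over 12 alternatives (−1.56 to −1.35 with each library left out). This range is a description and no support, since the genes were chosen for that difference in these libraries. The log2 fold change of Mob1a lay between −1.28 and −1.02 and that of Nf2 between 0.85 and 1.14. Mob1a passed the thresholds in 9 of its 12 alternatives and Nf2 in 5, with unadjusted p = 0.078 with all genes of at least 1 count, 0.14 with the replicate block and 0.0685 with DESeq2's Wald test, and the remaining losses came from leaving out single libraries. Of the 9 members other than Lats2, 2 passed the thresholds, against 1 with all genes of at least 1 count, with the replicate block or with DESeq2, and between 0 and 2 with each library left out. The cause was not tested. Sav1 changed sign to 0.40 with the replicate block, to 0.17 with limma, to 1.24 without WT replicate 2 and to 0.17 without KIKO replicate 3 (−0.72 to 1.24 with each library left out). Without KIKO replicate 2, Wwtr1 changed to −0.53 (−0.53 to 0.52 with each library left out) and Tead1 to 0.085 (−0.68 to 0.085). With at least 10 counts in every library, Lats1, Sav1, Yap1 and Nuak2 could not be tested. Nuak2 also missed the thresholds with the replicate block (−1.78, unadjusted p = 0.052), with DESeq2 (unadjusted p = 0.0518) and without WT replicate 1, WT replicate 2 or KIKO replicate 3.

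Over all genes, 131 passed the thresholds (78 higher, 53 lower). The count was 383 when every gene with 1 or more counts was kept (16822 genes tested), 271 with the replicate block and between 52 and 693 with each library left out, with 52 without WT replicate 1 and 693 without KIKO replicate 2. The split was 94 higher and 43 lower with library size alone and 96 and 40 with DESeq2, and it turned to 109 higher and 162 lower with the replicate block and to 318 and 375 without KIKO replicate 2. Without WT replicate 1 it was 39 and 13, without WT replicate 2 79 and 12, and without KIKO replicate 3 87 and 38. The count at an adjusted p under 0.05 was 0 in edgeR (131 at an unadjusted p under 0.05) and in DESeq2, 1 with all genes of at least 1 count, and between 0 and 8 with each library left out, 8 without KIKO replicate 2. Leaving out a WT library assumes that the lone WT library varies like KIKO. Whether same-numbered libraries of both genotypes share more than a number is not given in the labels. Their deviations from the group means correlated across genes with r of 0.18 and 0.239. With 2 WT libraries, the WT deviations mirror each other, so these r values depend on each other and cannot decide whether a pairing exists. The block leaves 1 residual degree of freedom. Added after seeing the data, the rank of Mob1a in likeness to Lats2, 5 of 10888, was between 7 and 38 with each library left out (38 without KIKO replicate 2) and 5 on log2(CPM + 0.5).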

Other observations

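Several Hippo genes, named after their counts were seen, had too few counts to be tested. Ankrd1, a target often used as a reporter of YAP activity, and the TEAD cofactors Vgll1 and Vgll2 had 0 counts in every library, which allows up to 2.28 to 3.04 normalized CPM. Fat4, an atypical cadherin upstream of the cascade, had 2 counts in WT replicate 1 and 0 in every other library. Tead2 had 5 and 2 counts in WT replicates 1 and 2 and 1, 18 and 2 in KIKO replicates 1 to 3, with KIKO replicate 2 the highest. Gadd45a had 4 and 23 counts in WT and 7, 0 and 3 in KIKO libraries, so that a single WT library stood apart.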
